A study of Homo sapiens with 4 samples.

Results

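The genes described here are 35 genes of the endoplasmic reticulum (ER), chosen by name from the 18707 loci with a value above 0 in the table. They fall into 22 genes of the unfolded protein response (UPR), named UPR genes below, and 13 genes of the protein translocation channel and of oligosaccharyltransferase, named translocon genes below. All 35 were found in the table and all 35 passed the filter on low values in both cell lines. The genes and their classes were chosen with earlier results of these data known. The UPR genes were the lumenal chaperones HSPA5, HSP90B1 and HYOU1, the J proteins and cofactors DNAJB9, DNAJB11, DNAJC3, SDF2L1, MANF and CRELD2, the lectin chaperones CALR and CANX, the disulfide isomerases PDIA3, PDIA4, PDIA6 and P4HB, the degradation factors HERPUD1, SEL1L, SYVN1 and EDEM1, and the sensors and regulators XBP1, ERN1 and ATF6. The translocon genes were the SEC61A1, SEC61B and SEC61G channel, its partners SEC62 and SEC63, the SSR1 to SSR4 genes of the translocon-associated protein (TRAP) complex, and OSTC, DAD1, RPN1 and RPN2 of oligosaccharyltransferase.

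RNA-seq was performed on HT-29, a human colorectal cancer line, and on NCM460, a line derived from human colorectal cells, each without treatment and after 24 h with 100 μg/mL sturgeon chondroitin sulfate (SCS), a sulfated glycosaminoglycan. This gave 4 libraries, with 1 library per condition. The SCS and control libraries of a line therefore allow no test between conditions, and the intervals given below cover counting error only. The labels name 1 culture recipe for both lines, whereas the methods of the study give more serum to NCM460, so line and medium cannot be told apart. With bulk RNA, fewer cells of a kind and less RNA per cell cannot be told apart either.

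The ER folds the proteins that a cell secretes or inserts into its membranes. Ribosomes dock at the Sec61 channel, the nascent chain enters the lumen, oligosaccharyltransferase attaches glycans to it, and chaperones and disulfide isomerases fold it, while chains that fail to fold are sent back out to the proteasome. When unfolded chains accumulate, the sensors IRE1 (the product of ERN1), ATF6 and PERK start the UPR. IRE1 splices the XBP1 mRNA, ATF6 is cut to release a transcription factor, and both routes induce chaperones and degradation factors, whereas PERK slows translation and raises ATF4 and DDIT3. The colon epithelium is a secretory tissue that relies on this machinery.

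The libraries held 1156622 to 1654801 fragments assigned to genes. Mitochondrial transcripts took 35.8% of the fragments in untreated HT-29, 13.8% in SCS-treated HT-29, 62.3% in untreated NCM460 and 46.3% in SCS-treated NCM460. The counts of nuclear fragments, which set the precision here, were 1061737, 1383491, 507713 and 621636 in the same order. The mitochondrial share was lower with SCS in both lines, and its part in the results below was not tested. Values are given as fragments and as CPM (fragments relative to the size of the library after TMM scaling). A locus was called higher or lower when its fold change was over 1.5 and its 95% interval left out 0 on the log2 scale. EPCAM, CDH1, KRT8, KRT18 and KRT19, markers of epithelium, were present in all 4 libraries, whereas KRT20, VIL1 and LGALS4 had 0 fragments in both NCM460 libraries and CDX2 had 0 in both HT-29 libraries. PTPRC and COL1A2, markers of leukocytes and fibroblasts, had 0 fragments in every library, and VIM, COL1A1, PECAM1 and the intestinal marker CDH17 had at most 17.

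In HT-29 cells, 28 of the 35 ER genes were higher with SCS and 0 were lower. Among the UPR genes, 18 of 22 were called higher, with a median log2 fold change of 1.11, and among the translocon genes 10 of 13, with a median of 0.82. Of all 12174 loci tested in HT-29, 16.8% were called higher and 14.7% lower, and their median was 0.07. The UPR median exceeded the translocon median by 0.30 on the log2 scale, but the order-statistic intervals of the medians overlapped (0.71 to 1.74 and 0.45 to 1.05). UPR genes made up 0.714% of nuclear fragments in the control library (95% Clopper-Pearson interval 0.698 to 0.730) and 1.49% (1.47 to 1.51) with SCS. For the translocon genes the shares were 0.208% (0.199 to 0.217) and 0.309% (0.2997 to 0.318).

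**Figure D1:**
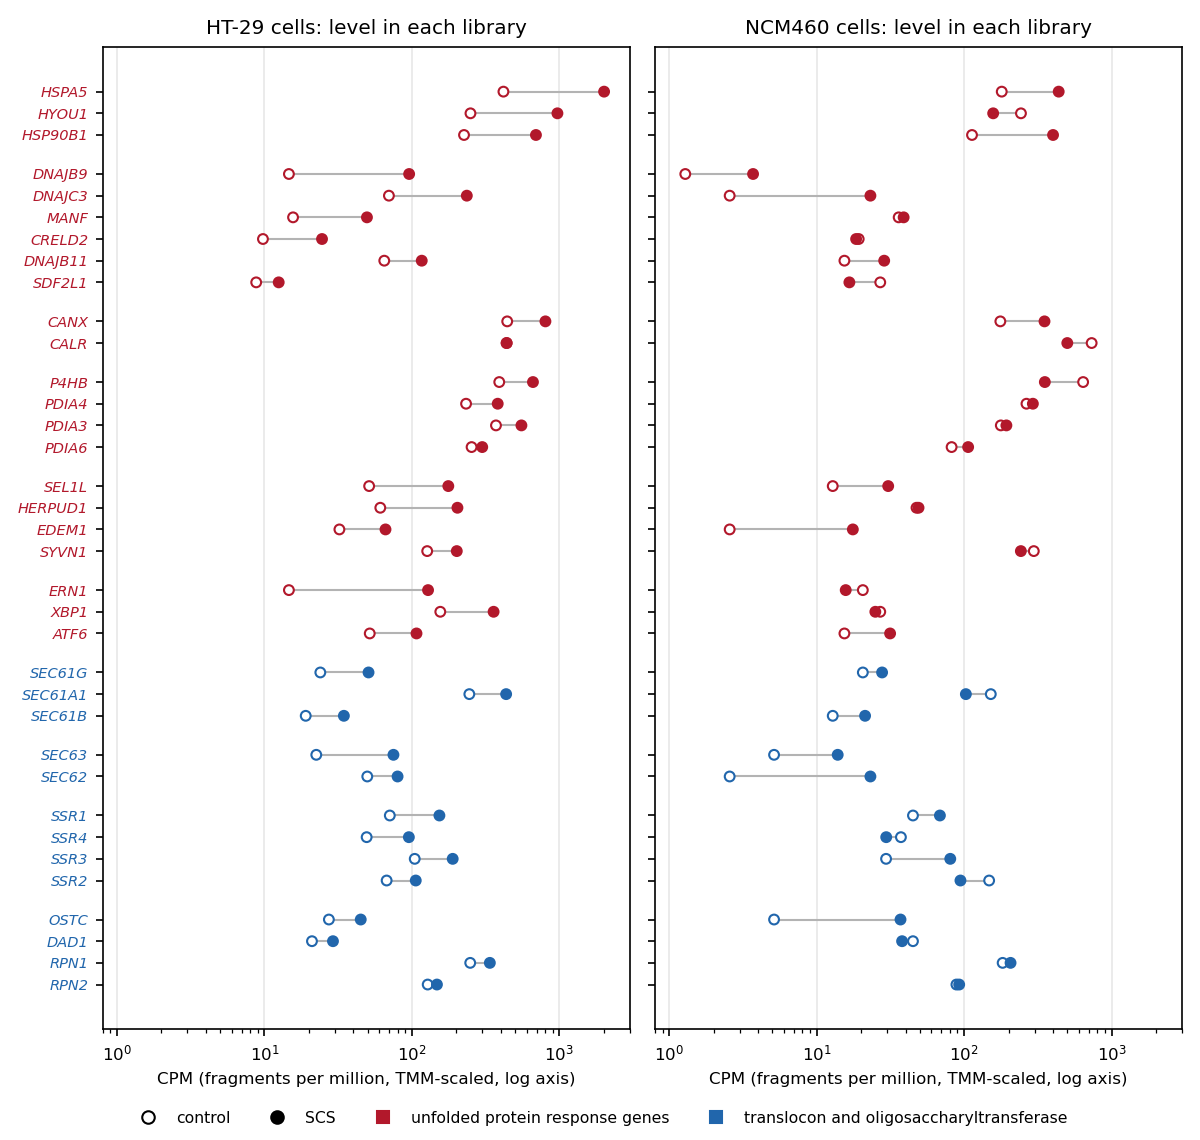
Level of each of the 35 ER genes in each library, in CPM on a log axis, with HT-29 cells on the left and NCM460 cells on the right. Open circles are control and filled circles SCS libraries (1 library each, no error bars), with UPR genes in red and translocon genes in blue. In HT-29 cells HSPA5 was at 418 and 2011 CPM without and with SCS, and CALR was at 439 CPM in both.

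In NCM460 cells fewer of these genes were called. Among the UPR genes, 7 of 22 were called higher and 2 lower, with a median log2 fold change of 0.13, and among the translocon genes 4 of 13 were higher and 1 lower, with a median of 0.41. Of all 12670 loci tested in NCM460, 15.3% were called higher and 13.8% lower, and their median was 0.03. The 3 lower calls (HYOU1, P4HB and SSR2) are a smaller share than that of all loci, and none of them held under every scaling, trend and depth tried. With scaling by total counts only, 13 UPR and 9 translocon genes were higher and 0 lower, when 32.6% of all loci were higher. The share of nuclear fragments from UPR genes was 0.480% (0.462 to 0.4998) in the control library and 0.579% (0.561 to 0.599) with SCS, and that from translocon genes was 0.119% (0.109 to 0.128) and 0.145% (0.136 to 0.155). The UPR median minus the translocon median was -0.28 here, and -0.25 with the GC trend (below) subtracted. The log2 fold change was larger in HT-29 than in NCM460 for 16 of 22 UPR genes and 10 of 13 translocon genes. With the GC trend subtracted in NCM460 only, the counts were 21 of 22 and 10 of 13. The share of all loci with a larger value in HT-29 was not counted. The difference between the lines was not tested, because neither has a second library.

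**Figure D2:**
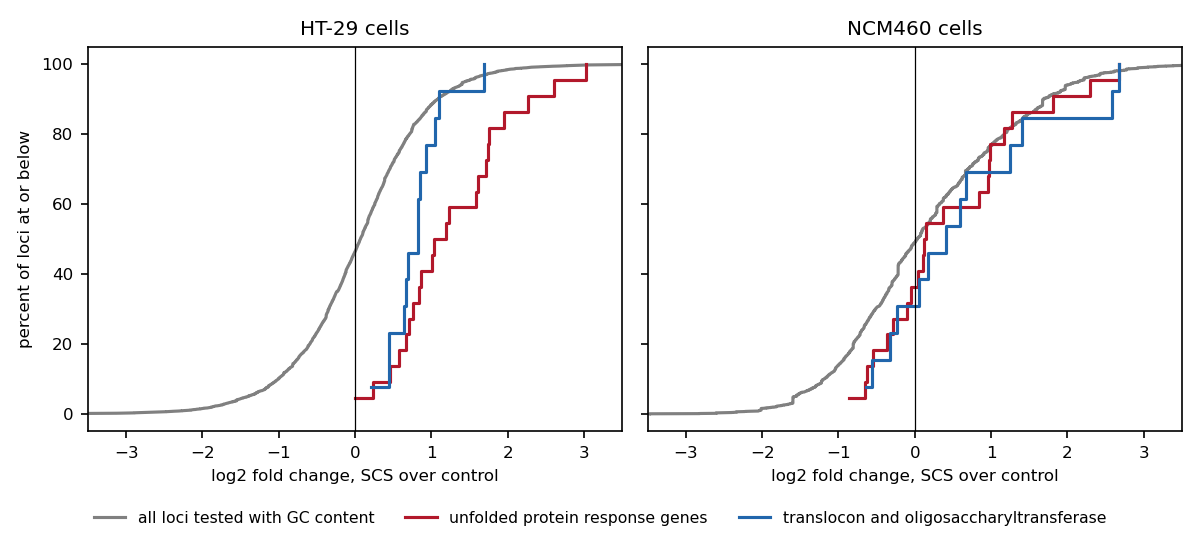
Cumulative distribution of the log2 fold change (SCS over control) in HT-29 cells and in NCM460 cells, as the percent of loci at or below each value. The grey line is all loci tested that have a GC content, red the 22 UPR genes and blue the 13 translocon genes, and in HT-29 both coloured lines lie to the right of the grey one up to a log2 fold change of 1.

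The change in NCM460 cells varied with the base composition of the transcripts. Across the 7332 loci that averaged 10 CPM or more, Spearman's rho between GC content and log2 fold change was -0.74 in NCM460, and over the 35 ER genes it was -0.78. In HT-29 the values were -0.18 over 7531 loci and -0.27 over the 35 genes. These correlations are across genes of the same pair of libraries, and genes are not independent replicates. The median GC content was 45.9% for UPR genes, 45.2% for translocon genes and 48.3% for all loci tested in HT-29. Each line was therefore also described with the trend of fold change on GC content subtracted.

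With the GC trend subtracted, 4 UPR genes (HSPA5, HSP90B1, DNAJC3 and EDEM1) and 1 translocon gene (OSTC) were called higher in NCM460, and XBP1 and SSR2 were called lower. Of all loci, 5.66% were then called higher and 6.19% lower. In HT-29 the same step left 17 of 22 UPR genes and 8 of 13 translocon genes higher and 0 lower, where 14.5% of all loci were higher and 15.9% lower. The medians in HT-29 were then 0.99 for UPR genes and 0.63 for translocon genes, and in NCM460 0.02 and 0.27. What makes the NCM460 libraries differ by GC content was not tested.

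**Figure D3:**
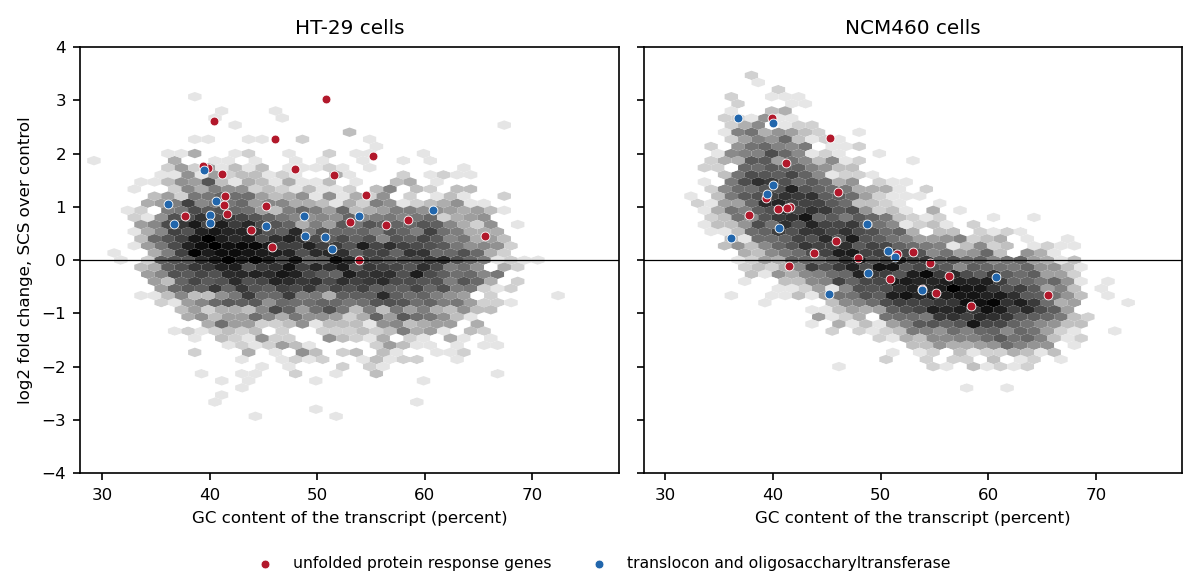
Log2 fold change (SCS over control) against the GC content of the transcript in percent, in HT-29 cells (left) and NCM460 cells (right). Grey hexagons are loci that averaged 10 CPM or more, darker for more loci on a log scale, with UPR genes as red and translocon genes as blue points, and the slope is seen in NCM460 (rho -0.74) more than in HT-29 (rho -0.18).

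The promoters of UPR genes were searched for the ER stress elements that ATF6 and XBP1 are known to bind. Windows from 250 bases before to 50 bases after the transcription start were taken from RefSeq (GRCh38.p14), and 33 of the 35 genes had one (PDIA3 and RPN1 did not). Some genes, CANX among them, have more than 1 window. The ER stress element (ERSE), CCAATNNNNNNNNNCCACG on either strand, was in the windows of CALR, CANX, CRELD2, HSP90B1, HSPA5, PDIA6 and XBP1, which are 7 of 21 UPR genes with a window, and in 0 of 12 translocon genes. It was in 27 of 35116 windows of all genes (0.0769%). The ERSE-II, ATTGGNCCACG, was in HERPUD1, HYOU1 and SDF2L1 and in 0 of 12 translocon genes, against 19 windows of all genes (0.0541%). HSP90B1 held 2 ERSE matches and HYOU1 held 2 ERSE-II matches. The core of the UPR element, TGACGTGG, which contains the CCACG end of both elements on its other strand, was in HYOU1, where it overlaps an ERSE-II match, and in SEC62, SSR3 and SSR4, against 0.729% of all windows. The CCACG end alone was in 17 of 21 UPR genes, 9 of 12 translocon genes and 38.1% of all windows. These matches are letters in a window and are not shown to be bound sites. The elements were known beforehand from the UPR, so finding them in UPR genes was not a test. Counts of genes and shares of windows also differ in unit, as a gene can have more than 1 window. The windows of all genes include those of the 33 genes here. The stretches below, written in the direction of transcription, show the 10 UPR genes with a match, and the capitals mark the ERSE or ERSE-II on either strand.
HSPA5 promoter (chr9:125241376-125241424, minus strand): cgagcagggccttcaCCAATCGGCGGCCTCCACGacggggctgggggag
HSP90B1 promoter (chr12:103930201-103930354, plus strand): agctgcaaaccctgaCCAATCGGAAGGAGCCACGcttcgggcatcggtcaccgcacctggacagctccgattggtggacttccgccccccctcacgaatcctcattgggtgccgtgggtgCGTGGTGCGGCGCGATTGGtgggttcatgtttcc
XBP1 promoter (chr22:28800588-28800636, minus strand): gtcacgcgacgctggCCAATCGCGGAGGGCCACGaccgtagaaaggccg
CRELD2 promoter (chr22:49918539-49918587, plus strand): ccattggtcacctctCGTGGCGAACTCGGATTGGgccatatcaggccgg
CANX promoter (chr5:179698763-179698811, plus strand): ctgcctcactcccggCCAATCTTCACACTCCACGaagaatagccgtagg
CALR promoter (chr19:12938369-12938417, plus strand): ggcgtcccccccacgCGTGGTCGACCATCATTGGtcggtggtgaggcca
PDIA6 promoter (chr2:10812838-10812886, minus strand): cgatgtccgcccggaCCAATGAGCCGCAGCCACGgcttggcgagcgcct
HYOU1 promoter (chr11:119057259-119057405, minus strand): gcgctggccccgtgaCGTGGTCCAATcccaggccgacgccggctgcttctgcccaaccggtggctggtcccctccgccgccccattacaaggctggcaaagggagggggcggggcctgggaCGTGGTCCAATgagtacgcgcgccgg
HERPUD1 promoter (chr16:56932010-56932050, plus strand): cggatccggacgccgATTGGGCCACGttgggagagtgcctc
SDF2L1 promoter (chr22:21642099-21642139, plus strand): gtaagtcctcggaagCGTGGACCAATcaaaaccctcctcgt

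Of these 10 genes, 7 were called higher in HT-29, where 16.8% of all loci were. Their median log2 fold change was 1.21, and CALR, PDIA6 and SDF2L1 were not called. The 11 UPR genes with a window and no such match were all 11 called higher, with a median of 1.04, counting SYVN1, whose value cannot be assigned to it (it is listed with another gene). In NCM460 3 of the 10 genes with a match were called higher and 1 lower, with a median of -0.0052. Of the 11 without a match 4 were higher and 1 lower, with a median of 0.84. In that line 15.3% of all loci were called higher and 13.8% lower. These NCM460 values are without the GC trend subtracted. With it subtracted, HSPA5 and HSP90B1 (match) and DNAJC3 and EDEM1 (no match) were still called higher. CANX, with a match, and SEL1L and ATF6, without, lost their higher calls. HYOU1 and P4HB were no longer called lower, and XBP1, with a match, was. DNAJB11, at 0.84 before and without a match, was then at -0.39. These splits are over few genes and were not tested.

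The lumenal chaperones showed the largest gain in fragments in HT-29. HSPA5 (chromosome 9, 125234853 to 125241330, minus strand, GRCh38), which encodes BiP, the HSP70 of the ER and the partner that keeps the sensors inactive, had 855 fragments in the control library and 4829 in the SCS library, or 418 and 2011 CPM. Its log2 fold change was 2.26 (2.16 to 2.37), a 4.8-fold difference. In NCM460 it had 140 fragments in the control library and 473 in the SCS library, which gave 1.28 (1.01 to 1.57), and 0.90 (0.63 to 1.18) with the GC trend subtracted. HSPA5 was thus higher with SCS in both lines, and its share of all UPR fragments went from 11.3% (10.6 to 12.0) to 23.4% (22.8 to 24.0) in HT-29 and from 5.74% (4.85 to 6.74) to 13.1% (12.0 to 14.3) in NCM460.

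HSP90B1, which encodes GRP94, the HSP90 of the ER, had 462 fragments in the control library and 1666 in the SCS library in HT-29, which gave 1.61 (1.47 to 1.77). In NCM460 it had 88 fragments in the control library and 433 in the SCS library, with 1.81 (1.49 to 2.173) and, with the GC trend subtracted, 0.84 (0.52 to 1.20). This gene and the microRNA MIR3652 inside it are listed with the same values. HYOU1, a large HSP70 relative that exchanges nucleotide on BiP, was higher in HT-29, at 511 against 2330 fragments (control against SCS) and 1.95 (1.82 to 2.10). In NCM460 it had 189 against 170 fragments and was called lower, at -0.62 (-0.93 to -0.32), but not with the GC trend subtracted, at -0.14 (-0.45 to 0.16), and with scaling by total counts only the value was 0.067. Its row is listed on a patch of the genome build rather than on chromosome 11.

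The J proteins, which hand substrates to BiP, were higher in HT-29. DNAJB9 (ERdj4) had 30 fragments in the control library and 230 in the SCS library, or 14.7 and 95.8 CPM, a log2 fold change of 2.61 (2.16 to 3.31). DNAJC3 (P58IPK) had 143 against 566 fragments and 1.74 (1.49 to 2.03), and DNAJB11 (ERdj3) had 133 against 280 fragments and 0.83 (0.54 to 1.15). DNAJB11 was no longer called with the GC trend subtracted, at 0.58 (0.28 to 0.90). The secreted or lumenal cofactors followed at lower counts. MANF, a nucleotide exchange inhibitor of BiP, had 32 against 119 fragments and 1.59 (1.09 to 2.28). CRELD2 had 20 against 59 fragments and 1.23 (0.58 to 2.14), and SDF2L1, a partner of the J proteins, had 18 against 30 fragments and 0.45 (-0.38 to 1.44) and was not called.

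In NCM460 these 6 genes had few fragments. DNAJB9 had 1 against 4 fragments and 0.96 (-1.81 to 7.15), too few for a direction, and DNAJC3 had 2 against 25 fragments, which gave 2.67 (1.17 to 6.29) and, with the GC trend subtracted, 1.57 (0.07 to 5.20). DNAJC3 was the only one of the 6 called in NCM460. DNAJB11 had 12 against 31 fragments, MANF 28 against 42 fragments, CRELD2 15 against 20 fragments and SDF2L1 21 against 18 fragments, and all 4 intervals included 0.

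The lectin chaperones, which hold glycoproteins during folding, differed from each other in HT-29. CANX (calnexin, bound to the membrane) had 907 fragments in the control library and 1932 in the SCS library, a log2 fold change of 0.86 (0.75 to 0.98). CALR (calreticulin, free in the lumen) had 899 fragments in the control library and 1054 in the SCS library, which is 1.00-fold after scaling, with an interval of -0.13 to 0.13 on the log2 scale. The interval of CALR lies wholly under that of CANX. In NCM460 CANX had 137 against 379 fragments and was called higher at 0.99 (0.71 to 1.29), but not with the GC trend subtracted, at 0.06 (-0.22 to 0.36). CALR had 570 against 541 fragments there, at -0.55 (-0.72 to -0.38), under the fold needed for a call, and -0.14 (-0.31 to 0.03) with the GC trend subtracted.

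The disulfide isomerases, which form and rearrange the bonds between cysteines, had a median log2 fold change of 0.64 in HT-29, compared with 1.95 for the 3 lumenal chaperones. P4HB had 801 against 1590 fragments and 0.76 (0.64 to 0.88), and PDIA4 had 477 against 917 fragments and 0.71 (0.55 to 0.88), and both were called higher. PDIA3 had 761 against 1328 fragments, and its 0.57 (0.44 to 0.70) lay just under the fold used for a call. PDIA6 had 520 against 720 fragments and 0.24 (0.07 to 0.40). In NCM460 P4HB had 499 fragments in the control library and 381 in the SCS library and was called lower, at -0.86 (-1.06 to -0.67), a level 1.82-fold lower with SCS, but with the GC trend subtracted the value was -0.24 (-0.44 to -0.05). PDIA3, PDIA4 and PDIA6 were not called there, at 0.12, 0.14 and 0.37.

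The 3 degradation factors with a value of their own were called higher in HT-29. SEL1L, the scaffold of the HRD1 ubiquitin ligase, had 105 fragments in the control library and 424 in the SCS library and a log2 fold change of 1.76 (1.47 to 2.11). HERPUD1, which recruits substrates to that ligase, had 125 against 489 fragments and 1.72 (1.45 to 2.03), and EDEM1, a mannosidase-like lectin that selects glycoproteins for disposal, had 66 against 159 fragments and 1.01 (0.62 to 1.48). SYVN1, the HRD1 ligase itself, is listed with the same values as the ribosomal protein gene FAU and MIR6751, so the 260 against 484 fragments of that locus, also called higher, cannot be assigned to it. Without SYVN1, 17 of 21 UPR genes were called higher in HT-29, with a median of 1.19. The shares of UPR fragments given above count this locus. Without it UPR genes made up 0.689% of nuclear fragments in control and 1.46% with SCS in HT-29. In NCM460 these shares were 0.435% and 0.537%. In NCM460 SEL1L had 10 against 33 fragments and 1.17 (0.19 to 2.43), which became 0.04 (-0.94 to 1.30) with the GC trend subtracted. EDEM1 had 2 against 19 fragments, with 2.30 (0.72 to 5.92) and 1.82 (0.24 to 5.44) in the same order. The locus of SYVN1 had 231 against 262 fragments and HERPUD1 had 37 against 53 fragments and 0.04 (-0.59 to 0.69). EDEM1 was the only one of the 4 called higher there both ways.

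The 3 sensors and regulators were also higher in HT-29. ERN1 (chromosome 17, 64039142 to 64130819, minus strand, GRCh38) had 30 fragments in the control library and 309 in the SCS library, or 14.7 and 129 CPM, and its 3.03 (2.59 to 3.73) was the highest log2 fold change of the 35 genes. XBP1 had 319 against 860 fragments and 1.19 (1.01 to 1.39), and ATF6 106 against 258 fragments and 1.04 (0.72 to 1.39). The table gives 1 value per gene, so the spliced and unspliced forms of XBP1, on which its activity depends, were not measured. In NCM460 ERN1 had 16 against 17 fragments and -0.36 (-1.46 to 0.69). The deposited FPKM of ERN1 in NCM460 was 18.5 in control and 1.76 with SCS, a difference that its fragments did not show. XBP1 had 21 against 27 fragments there, with -0.11 (-0.99 to 0.79) and, with the GC trend subtracted, -1.05 (-1.93 to -0.16), which was called lower. ATF6 had 12 against 34 fragments, with 0.97 (0.04 to 2.11), and 0.01 (-0.91 to 1.16) with the GC trend subtracted.

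**Figure D4:**
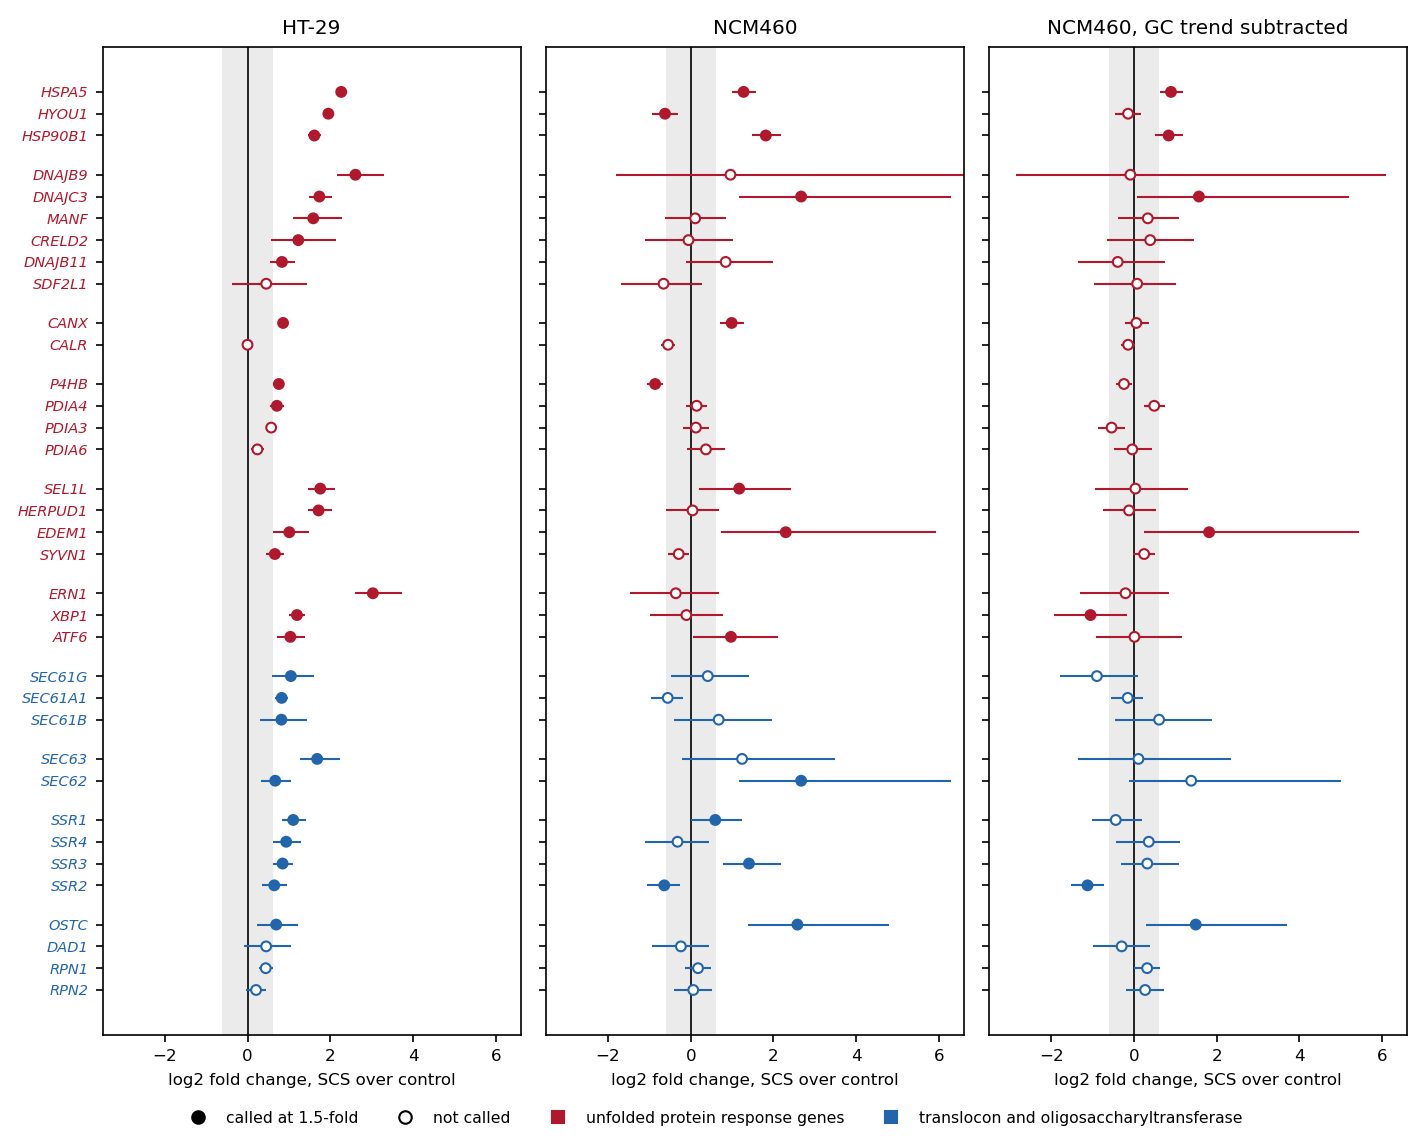
Log2 fold change (SCS over control) of the 35 ER genes, grouped by role, in HT-29, in NCM460 and in NCM460 with the GC trend subtracted. Points are single comparisons of 1 library with 1, filled where called, lines are 95% counting intervals (clipped at the axis limit), and grey bands mark changes under 1.5-fold. All 35 points in HT-29 lie at or right of 0, from CALR at 1.00-fold to ERN1 at 3.03.

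The Sec61 channel was higher in HT-29 in all 3 subunits. SEC61A1, the pore, had 502 fragments in the control library and 1046 in the SCS library, a log2 fold change of 0.83 (0.67 to 0.99). SEC61B had 39 against 83 fragments and 0.82 (0.29 to 1.45), and SEC61G had 49 against 122 fragments and 1.05 (0.60 to 1.60). These 3 intervals overlapped. Of the channel partners that serve BiP and post-translational import, SEC63, a J protein of the membrane, had 46 against 180 fragments and 1.68 (1.26 to 2.24), the highest of the translocon genes. SEC62 had 102 against 192 fragments and 0.67 (0.33 to 1.04), and lost its call once the GC trend was subtracted, at 0.40 (0.06 to 0.78).

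In NCM460 none of the 3 channel subunits was called. SEC61A1 had 118 against 111 fragments and -0.56 (-0.95 to -0.18), SEC61B 10 against 23 fragments and 0.68 (-0.40 to 1.96), and SEC61G 16 against 30 fragments and 0.41 (-0.49 to 1.41). SEC62 had 2 against 25 fragments, with 2.67 (1.17 to 6.29), and 1.38 (-0.12 to 5.01) with the GC trend subtracted. SEC63, at 4 against 15 fragments, gave 1.24 (-0.22 to 3.48).

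The 4 TRAP subunits, which help nascent chains into the channel, were higher in HT-29. The values were 145 against 369 fragments and 1.10 (0.84 to 1.40) for SSR1, 214 against 454 fragments and 0.85 (0.62 to 1.10) for SSR3, and 101 against 229 fragments and 0.93 (0.61 to 1.30) for SSR4. SSR2 had 138 fragments in the control library and 255 in the SCS library and 0.65 (0.35 to 0.97). SSR1 is listed with the same values as CAGE1. In NCM460 the subunits of this complex did not move together. SSR3 had 23 against 87 fragments and 1.41 (0.77 to 2.18), and SSR1 35 against 74 fragments and 0.59 (0.01 to 1.23), and with the GC trend subtracted these became 0.32 (-0.32 to 1.09) and -0.44 (-1.02 to 0.20). SSR2 had 115 against 102 fragments and was called lower, at -0.64 (-1.05 to -0.25), and at -1.12 (-1.53 to -0.73) with the GC trend subtracted, but at 0.047 with scaling by total counts only. SSR4 had 29 against 32 fragments and -0.32 (-1.10 to 0.45).

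Of the 4 oligosaccharyltransferase genes 1 was called higher in HT-29, where 16.8% of all loci were, and the median of the 4 was 0.44. With the GC trend subtracted 0 of the 4 were called there. OSTC, a subunit of the form that works beside the channel, had 56 against 108 fragments and 0.69 (0.24 to 1.21), and lost its call once the GC trend was subtracted, at 0.48 (0.02 to 0.99). RPN1 and RPN2, the ribophorins, had 509 against 811 fragments with 0.44 (0.28 to 0.60) and 262 against 355 fragments with 0.21 (-0.03 to 0.44), and DAD1 had 43 against 70 fragments with 0.45 (-0.10 to 1.06). None of these 3 was called. In NCM460 OSTC had 4 fragments in the control library and 40 in the SCS library, with 2.58 (1.38 to 4.79) and, with the GC trend subtracted, 1.49 (0.30 to 3.71). RPN1, RPN2 and DAD1 were not called there, at 0.18, 0.06 and -0.24.

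Levels were compared between genes with the deposited FPKM values, which account for length. SYVN1, whose value cannot be assigned to it, is left out of every ranking in this paragraph. In the HT-29 control library CALR (156), P4HB (145) and PDIA3 (130.4 FPKM) led the UPR genes. With SCS, HSPA5 led at 328 FPKM, followed by P4HB at 213 and XBP1 at 181. In the NCM460 control library P4HB (416 FPKM) and CALR (386 FPKM) were highest, and with SCS CALR (209 FPKM) and P4HB (156 FPKM) were highest. HSPA5 was at 83.8, 328, 59.9 and 102 FPKM in HT-29 control, HT-29 with SCS, NCM460 control and NCM460 with SCS.

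The untreated lines were compared for the same genes. Among the UPR genes 12 of 22 were called higher in HT-29 than in NCM460 and 5 lower, and among translocon genes 6 of 13 higher and 2 lower. Of the 12696 loci tested, 25.3% were called higher and 22.2% lower. With the GC trend between these libraries subtracted, the counts were 5 higher and 2 lower for UPR genes and 5 higher and 3 lower for translocon genes, against 18.4% of loci higher and 18.4% lower, so 15 of 35 ER genes were then called, a share near that of all loci. HSPA5, DNAJC3, PDIA6, EDEM1 and XBP1 were called higher in untreated HT-29 both ways, and MANF lower both ways. The merged locus of SYVN1 and FAU was lower both ways. For HSPA5 the log2 difference was 1.21 (0.96 to 1.48), and 0.79 with the trend subtracted. In untreated cells XBP1 differed by 2.48 (1.89 to 3.24) and 1.40.

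A change common to HT-29 and NCM460 was also fitted over the 4 libraries together, with line as a term and 1 residual degree of freedom. The lines are not replicates of each other. The edgeR quasi-likelihood test called 7 of 14067 loci (0.0498%) at an adjusted p under 0.05, and 0 of the 35 ER genes. At an unadjusted p under 0.05 it gave 680 loci, 10 of them ER genes. HSPA5 had a shared log2 fold change of 1.78 and an adjusted p of 0.201 by edgeR. DESeq2 with the same terms gave an adjusted p to 1522 loci and called 25 (1.64%), of which HSPA5 and HSP90B1 were higher, out of 20 ER genes with an adjusted p.

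Genes around these in the pathway were taken from 7 lists, also chosen with earlier results of these data known. In HT-29, 33 of 79 genes were called higher and 5 lower, where 16.8% of all loci were higher and 14.7% lower. The list named PERK branch was higher in 7 of 8 genes, with a median log2 fold change of 1.48. These are RNA levels, and the activity of PERK itself was not measured. EIF2AK3, which encodes PERK, had 37 against 129 fragments and 1.51 (1.03 to 2.14), ATF4 had 387 against 703 fragments and 0.63 (0.45 to 0.81), just under the fold for a call at 0.58 with the expression trend subtracted, and DDIT3 (CHOP) had 22 against 195 fragments and 2.78 (2.28 to 3.63). TRIB3 had 179 against 893 fragments and 2.07 (1.86 to 2.33), CHAC1, which degrades glutathione, 13 against 80 fragments and 2.18 (1.54 to 3.36), and ASNS, asparagine synthetase, 141 against 455 fragments and 1.44 (1.18 to 1.74). PPP1R15A (GADD34), which restores translation, had 545 against 1145 fragments and 0.84 (0.69 to 0.99). ATF3 was not called, at 158 against 205 fragments and 0.14 (-0.16 to 0.45).

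In NCM460, 0 of the 8 PERK branch genes were called higher and 2 were lower, where 15.3% of all loci were higher and 13.8% lower. Without the GC trend subtracted, the median was -0.67, and the 8 values ranged from -1.67 to -0.05. The counts are over few genes, and their difference from the shares of all loci was not tested. PPP1R15A had 87 against 37 fragments and -1.67 (-2.30 to -1.14), and TRIB3 had 50 against 25 fragments and -1.42 (-2.23 to -0.75). With the GC trend subtracted both were still lower, and ATF3 was lower as well. That made 3 of 8 lower and 0 higher, with a median of -0.61, where 6.19% of all loci were lower and 5.66% higher. DDIT3 had 6 against 8 fragments, EIF2AK3 6 against 5 fragments and CHAC1 10 against 6 fragments, too few for a direction. ATF4 and ASNS had 196 against 209 fragments and 71 against 85 fragments and were not called. With the GC trend subtracted ATF4 was at 0.17 (-0.12 to 0.46).

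**Figure D5:**
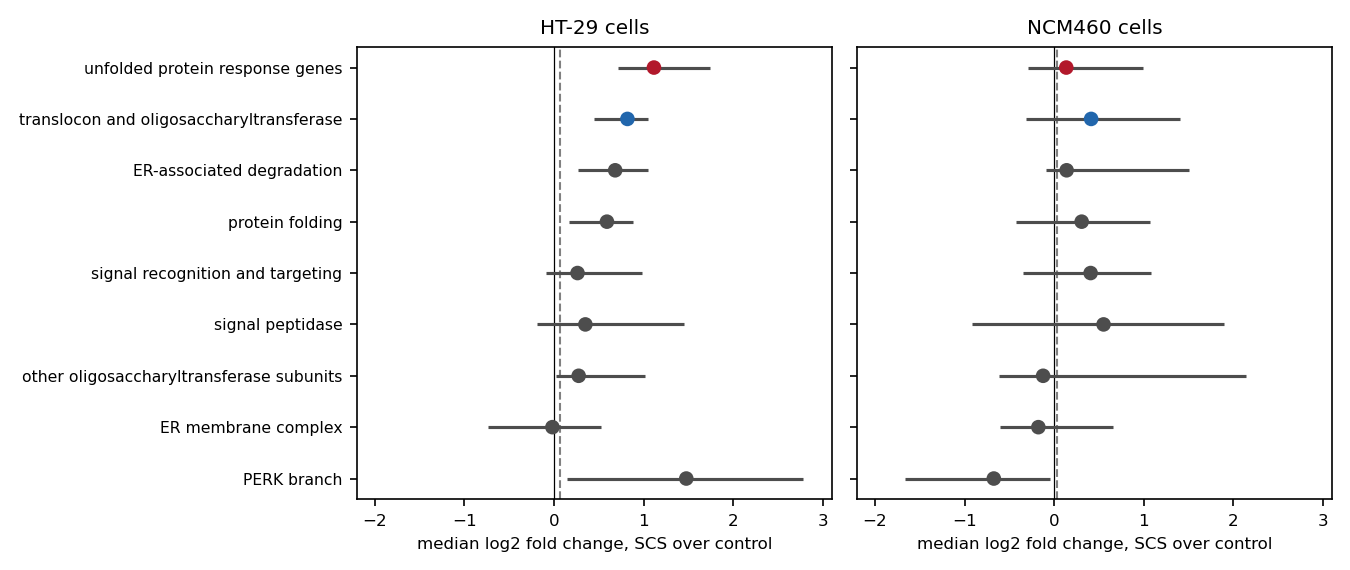
Median log2 fold change (SCS over control) of the UPR genes (red), the translocon genes (blue) and 7 other ER lists (grey) in HT-29 and NCM460. Lines span the order-statistic interval of the median across the genes of a list, which are not replicates. For the lists of 5 and of 8 genes this is the whole range. The dashed line is the median of all loci tested. In HT-29 the PERK branch (1.48) and the UPR genes (1.11) are highest and the ER membrane complex (-0.02) lowest.

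The other lists had a smaller share of genes called higher in HT-29. In ER-associated degradation 9 of 15 were higher and 1 lower, with a median of 0.68. VIMP, a membrane anchor of the retrotranslocation complex, had 39 against 146 fragments and 1.61 (1.16 to 2.22), and the ubiquitin-conjugating enzyme UBE2G2 had 65 against 46 fragments and -0.69 (-1.31 to -0.16). In protein folding 9 of 20 were higher and 0 lower, with DNAJC1 at 14 against 98 fragments and 2.38 (1.76 to 3.501). Among the genes of that list averaging 10 CPM or more FKBP11 was lowest in both lines, but is listed with the same values as ARF3 and other genes, so its value cannot be assigned. In signal recognition and targeting 5 of 13 were higher and 2 lower. TRAM1, a translocation partner of the channel, had 127 against 342 fragments and 1.18 (0.90 to 1.505), and ASNA1, which delivers tail-anchored proteins, had 35 against 22 fragments and -0.82 (-1.74 to -0.09).

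The signal peptidase list had 1 of 5 genes higher, near the 16.8% of all loci, SEC11C at 14 against 50 fragments and 1.45 (0.73 to 2.58), with SPCS1 lowest at -0.19 (-0.81 to 0.41). Of the other oligosaccharyltransferase subunits 2 of 8 were higher, also near that share, one of them KRTCAP2, which is listed with MUC1, and the lowest was OST4 at 0.02 (-0.46 to 0.50). The ER membrane complex, which inserts membrane proteins that the Sec61 channel handles poorly, had 0 of 10 higher and 2 lower, with a median of -0.02. EMC1 had 128 against 85 fragments and -0.80 (-1.23 to -0.41), and EMC2 was highest in that list at 0.80 (-0.01 to 1.89), not called.

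In NCM460, 16 of 77 genes of these lists were called higher and 10 lower, against 15.3% and 13.8% of all loci. With the GC trend subtracted the counts were 5 and 10, against 5.66% and 6.19%. The counts before that step and the higher count after it lie near the shares of all loci. SRP72, the highest of signal recognition and targeting and a subunit of the signal recognition particle, had 6 against 49 fragments and 2.38 (1.33 to 4.07), and STT3B, a catalytic subunit of oligosaccharyltransferase, had 24 against 152 fragments and 2.14 (1.56 to 2.88). Both remained higher with the GC trend subtracted. UBE2J1, SPCS3 and DNAJC10, at 2.30 (0.72 to 5.92), 1.89 (0.96 to 3.21) and 2.03 (0.76 to 4.26), were called higher only before that step, and EMC7, highest in its list at 1.06 (-0.31 to 3.01), was not called. At the low end BAG6, at -0.88 (-1.13 to -0.65), and OS9, at -0.78 (-1.27 to -0.32), were called lower only before the GC trend was subtracted. SPCS1, at -0.92 (-1.96 to -0.01), was called lower both ways. EMC6, at -0.88 (-1.96 to 0.06), and KRTCAP2, at -0.62 (-1.36 to 0.08), were called neither way.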

How the data were processed

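Total RNA of 4 libraries (HT-29 and NCM460, each with and without SCS) was extracted with TRIzol and sequenced as paired ends on an Illumina HiSeq instrument. The submitters' processing notes list bcl2fastq 2.17.1.14, cutadapt 1.9.1, Bowtie2 and HTSeq 0.6.1 with hg19, and the methods of the study name Cuffdiff, but 93.6% of the loci found by ID start and end as in a GRCh38 annotation. The order of these tools is not given in the sources used here.

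The count columns that the authors deposited hold a scaled signal, not whole counts, although whole counts had been assumed when the design was set. Each value is a whole multiple of 1 step per library (0.686, 0.577, 2.04 and 1.33 for HT-29 control, HT-29 SCS, NCM460 control and NCM460 SCS), and 99.9% to 100% of values came out whole within 0.1, so whole fragments were recovered. The deposited FPKM values (fragments relative to transcript length and library size, computed by the authors) served for levels between genes. Of 64962 rows, 21550 were above 0. Neighbouring rows with identical values in every library were merged (for rows under 10 fragments in all, only where coordinates overlap), which gave 18707 loci, 1801 of them with more than 1 gene. The 26 rows without a gene name, 0.0403% to 0.0942% of fragments, were left out. No per-sample column was left unused.

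Fragments were scaled by TMM (edgeR 4.0.16 in R 4.3.3). Loci that averaged 1 CPM or more in a line were tested. Log2 fold changes used a prior count of 2 and 95% Clopper-Pearson intervals (SciPy 1.17.1), which cover counting error only. GC content was that of the longest annotated transcript, and trends were removed by lowess (statsmodels 0.14.6, span 0.3). The change shared by both lines was tested with edgeR and DESeq2 1.42.0 with Benjamini-Hochberg adjustment. The scripts were checked on simulated counts. Alternatives were other scalings, prior count, filters, thinning, trends on GC, expression and length, FPKM, and leaving out merged loci. The 35 genes, their classes and the other lists were chosen with earlier results of these data known. All 35 genes and the PERK branch are named, and of every other list the highest and lowest change in each line among genes that averaged 10 CPM or more.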

Additional observations from a re-analysis of the deposited data

Results flagged for a closer look

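3 genes were called higher with SCS in HT-29 and lower in NCM460, both with and without the GC trend subtracted. They are among the 35 ER genes and the 8 PERK branch genes. Without the trend subtracted, 16.8% of all loci were higher in HT-29 and 13.8% lower in NCM460. With it subtracted, these shares were 14.5% and 6.19%. The share of all loci called in opposite directions was not counted. The difference between the lines (HT-29 minus NCM460, log2 scale) was 1.29 for SSR2, 2.51 for PPP1R15A and 3.497 for TRIB3. With scaling by total counts only, SSR2 in NCM460 was at 0.047. It was also not called lower there with the expression trend subtracted, at -0.31, or by FPKM, at -0.46. With 1 library per condition these differences were not tested.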

How the results depend on the processing

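In HT-29 the counts of genes called were within 1.5 times those above under every alternative, and the translocon median was 1.09 with scaling by total counts only. Of the genes called higher in HT-29, 16 of 18 UPR genes (not DNAJB11 and SYVN1) and 6 of 10 translocon genes (SEC61A1, SEC61G, SEC63, SSR1, SSR3 and SSR4) were called under all 7 alternatives of scaling, trend and depth. In NCM460 these were HSPA5, HSP90B1, DNAJC3 and EDEM1 of the 7 UPR genes and OSTC of the 4 translocon genes, and 0 of the genes called lower. Scaling by total counts only moved the median of all loci by 0.24 in HT-29 and 0.61 in NCM460 and the share of lower calls from about 47% to 26.2% and 5.91%, and with it 13 UPR and 9 translocon genes were higher in NCM460, when 32.6% of all loci were, and 0 and 0 lower, when 2.05% were, with HYOU1 at 0.067 and SSR2 at 0.047. With the authors' scaling the median of all loci in NCM460 moved by -0.14 and 58.0% of calls were lower. The translocon genes called lower in NCM460 were 2 with DESeq2 size factors, 2 with the authors' scaling and 2 with the length trend subtracted. Of all loci, 16.1%, 17.2% and 15.9% were then called lower, in the same order. With the expression trend subtracted 0 UPR and 0 translocon genes were lower, when 12.3% of all loci were. By FPKM 4 UPR and 0 translocon genes were lower, when 28.8% of all loci were. With the GC trend subtracted 4 UPR genes were higher and 1 lower and 1 translocon gene higher, with SSR1 at -0.44. PPP1R15A and TRIB3 were negative in NCM460 under every alternative, between -1.82 and -0.98 and between -1.57 and -0.74. The shared change was called for 2 ER genes by DESeq2 and 0 by edgeR. Leaving out merged loci was chosen after seeing the data. In the PERK branch ATF4 in HT-29 was not called with the expression trend subtracted, at 0.58. The cause of these differences was not tested. With 1 library per condition no replicate could be left out, and the libraries are paired only by line, as in the fit of the shared change.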
